A study of Rattus norvegicus with 9 samples.

Results

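The 10 genes described here encode proteins that shorten the poly(A) tails of mRNAs or bring the shortening enzymes to them. They are the antiproliferative proteins Tob1, Tob2, Btg1 and Btg3, the nuclease subunits Cnot6, Cnot6l, Cnot7 and Cnot8 of the CCR4-NOT complex, and the 2 subunits of the PAN2-PAN3 deadenylase. They were taken by gene name from the 32623 entries of the expression table, each name matched 1 entry, and all 10 passed the filter on low counts that left 16284 genes for testing. The family was proposed with results of these same libraries known, among them a lower count of Tob2 under alternating than under direct current. It is therefore treated as chosen by that comparison, and the values of the members between the currents are given as a description without a test.

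Primary cortical neurons from wild-type Wistar rat embryos of embryonic day 16 to 18 were grown on conductive glass and left without current (control) or exposed to direct current (DCS) or alternating current (ACS) of 3 µA for 20 min a day over 7 days. Polyadenylated RNA was sequenced from 3 libraries in each group, 9 in all. The labels give 20 Hz for both currents and name the direct current group DES, and they put the neurons at day 7 in vitro while the growth protocol runs to day 14. Whether the 3 libraries of a group were made from different cultures is not given in the sources used here, and p-values therefore cover only the spread between these samples, which may be technical. Counts summed to 49039412 to 68690760 per library. All 11 neuronal markers had a mean FPKM (fragments scaled by exon length and by the fragments of the library) of at least 1, and their summed FPKM was 2222 to 2332 in the ACS, 2120 to 2296 in the DCS and 2087 to 2192 in the control libraries. The cultures also held RNA of 6 astrocyte markers, with a summed FPKM of 160 to 238 in the ACS, 199 to 205 in the DCS and 208 to 217 in the control libraries. RNA was also found of 6 markers of the oligodendrocyte lineage (166 to 197 per library) and 5 microglial markers (39.2 to 43.6). Of the microglial markers, 4 had a mean FPKM of at least 1. Endothelial and fibroblast markers stayed below 1 FPKM on average, and of the 3 endothelial names 2 were in the expression table. The 6 markers of progenitors and dividing cells, all with a mean FPKM of at least 1, summed to 240 to 259 FPKM in the ACS libraries and 273 to 298 FPKM in the other 6. In bulk RNA, fewer cells of a type and less RNA per cell cannot be told apart.

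The poly(A) tail at the 3′ end of an mRNA protects it and helps its translation, and its removal is usually the first step of decay. The PAN2-PAN3 complex trims long tails, and CCR4-NOT removes the rest with a pair of nuclease subunits, one of the Ccr4 type (Cnot6 or Cnot6l) and one of the Caf1 type (Cnot7 or Cnot8). Tob and Btg proteins bind the Caf1 subunit through a shared domain, and the Tob proteins also bind the cytoplasmic poly(A)-binding protein, which links the enzyme to the tail. In neurons, the tails of mRNAs in dendrites are lengthened and shortened as synapses are used. The libraries measured the mRNAs of these genes, not the length of any tail or the activity of any enzyme.

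The sequences before the start sites of Tob2, its relative Tob1 and Pan2 are shown because Tob2 and Pan2 passed the test between ACS and control neurons, in opposite directions, and Tob1 is the closest relative of Tob2. Each is the 250 bases before the start site in RefSeq's GRCr8 assembly, written 5′ to 3′ on the strand of the gene, at chr7:115251564-115251813 (minus strand) for Tob2, chr10:79659743-79659992 (plus strand) for Tob1 and chr7:1313405-1313654 (plus strand) for Pan2. Capitals mark matches to TGANTCA, the letters bound by AP-1 factors, or to TGACG, the core of the cAMP response element.
Tob2: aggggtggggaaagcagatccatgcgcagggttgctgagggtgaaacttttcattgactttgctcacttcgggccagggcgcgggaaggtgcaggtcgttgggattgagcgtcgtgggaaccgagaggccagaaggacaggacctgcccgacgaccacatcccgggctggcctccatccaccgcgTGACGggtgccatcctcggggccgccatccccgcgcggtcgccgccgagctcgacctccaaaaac
Tob1: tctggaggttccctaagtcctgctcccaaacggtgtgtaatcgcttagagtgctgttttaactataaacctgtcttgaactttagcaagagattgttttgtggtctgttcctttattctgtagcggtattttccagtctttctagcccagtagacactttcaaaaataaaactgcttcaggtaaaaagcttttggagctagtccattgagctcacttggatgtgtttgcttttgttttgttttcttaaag
Pan2: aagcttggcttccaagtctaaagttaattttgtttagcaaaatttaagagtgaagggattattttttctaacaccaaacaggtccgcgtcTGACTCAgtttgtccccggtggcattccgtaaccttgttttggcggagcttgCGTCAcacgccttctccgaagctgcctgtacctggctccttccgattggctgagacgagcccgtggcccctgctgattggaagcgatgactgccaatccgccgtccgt
Both strands were searched, also for the full cAMP response element TGACGTCA, which contains TGACG, and for the Egr letters GCGNGGGCG. The Tob2 window held TGACG once, 65 to 61 bases before the start. The Pan2 window held TGACTCA 160 to 154 bases before the start and TGACG on the other strand 108 to 104 bases before it, and the Tob1 window held none of the 4. Of all 33469 promoter windows of this length, 18.2% held TGACG, 6.34% TGANTCA, 4.29% the Egr letters and 1.59% the full element. RefSeq gave a window for 9 of the 10 members (not for Cnot7), and among them 5 held TGACG, 2 the Egr letters (Btg1 and Cnot6l), 1 TGANTCA and none the full element. The bases also differed in composition, with 65.2% G and C in the Tob2 window, 51.2% in that of Pan2 and 39.2% in that of Tob1. A match is a description of the letters, not a bound site. The start sites are those of the annotation, and whether they are the ones used in these neurons was not tested. The low share of G and C and the lack of matches in the Tob1 window therefore describe only the letters shown.

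**Figure D1:**
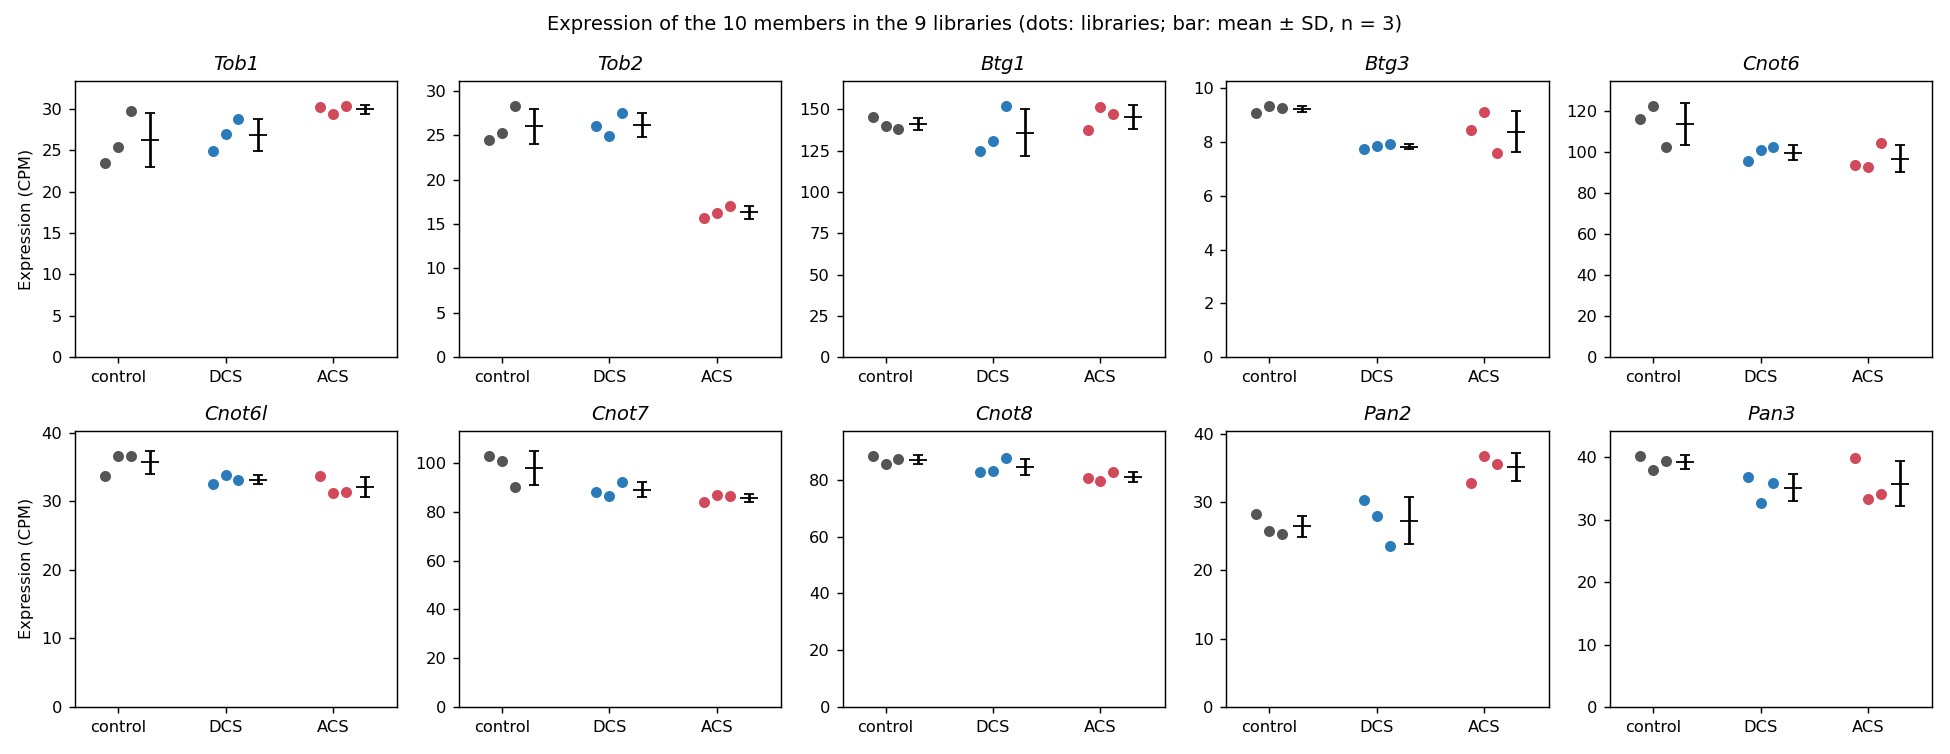
Expression of each member as CPM (counts scaled to the library total with TMM factors, vertical axis from 0) in the 3 control, 3 DCS and 3 ACS libraries, with a dot per library and the mean ± SD beside them. The 3 ACS libraries of Tob2 lie at 15.6 to 17.1 CPM and the other 6 at 24.5 to 28.3 CPM, while Pan2 is highest under ACS.

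Under alternating current, 2 of the 10 members passed the test against control neurons, Tob2 as lower and Pan2 as higher. Of all genes tested, 4.16% passed in this comparison, 2.83% as higher and 1.33% as lower. At an unadjusted p under 0.05 the members numbered 6 of 10, where 20.8% of all genes had such a p. The members had a median log2 fold change of -0.14 (all genes -0.0029), with 7 below 0 and 3 above. The ACS and control libraries did not overlap for 5 members (Tob2, Cnot6l, Cnot7 and Cnot8 lower, Pan2 higher), where 27.1% of all genes had groups that did not overlap (14.0% higher, 13.0% lower under ACS). The tests are quasi-likelihood F tests of edgeR from 1 model of the 9 libraries. Adjusted p-values are by Benjamini-Hochberg over all 16284 genes, with 0.05 as the threshold. These ACS libraries are the ones in which Tob2 was first noticed, so its p-value against control neurons is not independent evidence. The counts of members given here include Tob2 and are a description for the same reason.

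Tob2, the adaptor that can bind both a Caf1 deadenylase and the poly(A)-binding protein, had 24.5, 25.2 and 28.3 CPM in control neurons, 26.1, 24.9 and 27.5 CPM in DCS neurons and 15.6, 16.3 and 17.1 CPM under ACS. The 3 ACS libraries were lower than each of the other 6, and the control and DCS libraries overlapped. The mean was 25.99 ± 2.02 CPM in the control libraries and 16.3 ± 0.713 CPM in the ACS libraries (SD, n = 3 each). The difference was -0.67 on the log2 scale, with a standard error of 0.08 and an adjusted p of 0.00268 by edgeR. On the linear scale, Tob2 fell by 37.2%. Of the 16284 genes it ranked 46 by p and 585 by the most negative fold change. Between ACS and DCS, where Tob2 had been noticed, its log2 fold change was -0.68. Between DCS and control neurons it was 0.0088, with a 95% confidence interval of -0.17 to 0.18 (adjusted p = 0.990). Tob2 lies at chr7:123079537-123088279 on the minus strand in the deposited table, which names no genome build, with 1 annotated transcript. The exon length implied by its count, its FPKM and the library total spread by 0.644% between libraries, and by 0.598% to 0.767% over all members. An entry of no gene symbol, AC096601, overlaps 93 bases of it on the same strand, so reads could have been split between them. The entry held 31 to 80 counts in the ACS, 35 to 60 in the control and 57 to 106 in the DCS libraries. Tob2 held 789 to 899, 1308 to 1823 and 1361 to 1915 counts there, so the entry had 2.03% to 10.1% of its count. The summed FPKM of the 6 markers of progenitors and dividing cells was also lower in the 3 ACS libraries than in the other 6. Vim was the largest part of that sum, with a mean of 159 FPKM over the 9 libraries. The summed neuronal markers were higher in the ACS than in the control libraries without overlap, where 27.1% of single genes did not overlap. Tubb3 and Stmn2, with means of 1123 and 702 FPKM over the 9 libraries, made up most of this sum. Neither sum gives the direction of each marker. The part of either set of markers in the values of Tob2 and of the other members under ACS was not tested.

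Tob1, the close relative of Tob2, did not pass the test in either comparison with control neurons. Its expression was 23.5, 25.4 and 29.8 CPM in control neurons, 24.9, 27.0 and 28.8 CPM in DCS neurons and 30.2, 29.3 and 30.3 CPM under ACS. The ACS libraries were narrow, with an SD of 0.555 CPM, and lay on both sides of the highest control library. The log2 fold change was 0.19 between ACS and control neurons (95% confidence interval -0.01 to 0.40, adjusted p = 0.270 from edgeR's test) and 0.04 between DCS and control neurons (interval -0.17 to 0.24, adjusted p = 0.940). Tob1 lies at chr10:81913689-81915716 on the plus strand in the table.

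The balance between the 2 Tob genes does not depend on the scaling of a library, since both are divided by the same total. In FPKM, Tob1 was 1.09, 1.15 and 1.20 times Tob2 in control neurons, 1.09, 1.24 and 1.19 times under DCS and 2.20, 2.05 and 2.03 times under ACS. The ratio was thus 1.15 ± 0.0526 in control neurons and 2.09 ± 0.0947 under ACS (SD, n = 3 each), and the ACS libraries stood above all others. The ratio was formed from a gene chosen for its difference under ACS and is given without a test. The 2 Tob genes together had 52.2 ± 5.24 CPM in control neurons, 53.0 ± 2.85 CPM under DCS and 46.3 ± 0.972 CPM under ACS (SD, n = 3 each). The highest ACS library (47.4 CPM) lay below the lowest control library (48.0 CPM), where 27.1% of single genes did not overlap between these groups. This sum also contains Tob2, the gene chosen for its difference under ACS, and is given without a test. Tob1 alone had a higher mean under ACS (30.0 CPM) than in control neurons (26.2 CPM).

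**Figure D2:**
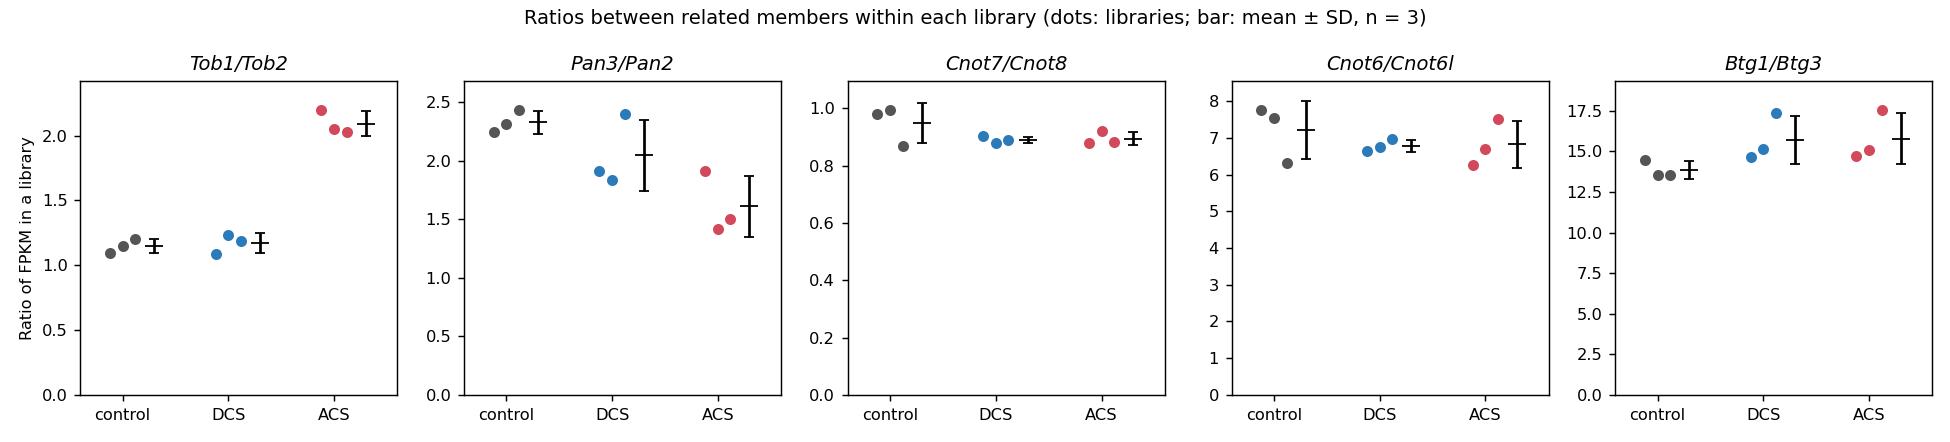
Ratio of the FPKM values of related members within each library (vertical axes from 0), with a dot per library and the mean ± SD beside them. Tob1/Tob2 is 2.03 to 2.20 in the ACS libraries and 1.09 to 1.24 in the other 6, and Pan3/Pan2 is lower in the ACS than in the control libraries.

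Btg1 and Btg3 share the Caf1-binding domain of the Tob proteins and are known as inhibitors of cell division. Btg1 was the most abundant member per length, with 93.3 ± 1.98 FPKM in control neurons (SD, n = 3). Its expression was 138 to 145 CPM in control neurons, 125 to 152 CPM under DCS and 137 to 151 CPM under ACS, with all 3 groups overlapping. Its log2 fold change between ACS and control neurons was 0.04, and the 95% confidence interval of -0.12 to 0.20 leaves out changes of the size seen for Tob2. Btg3 was the least abundant member by CPM, at 9.09, 9.33 and 9.24 CPM in control neurons, 7.72, 7.84 and 7.92 CPM in DCS neurons and 8.44, 9.11 and 7.59 CPM under ACS. The DCS libraries of Btg3 were all below the control libraries, at a log2 fold change of -0.24 (unadjusted p = 0.0488, adjusted p = 0.695 from edgeR's test). Under ACS its libraries reached into the range of both other groups (log2 fold change -0.14, adjusted p = 0.499). Of the summed FPKM of the 4 adaptor genes, Btg1 held 75.6 ± 1.91% in control neurons and 77.9 ± 0.787% under ACS, and Tob2 held 8.82 ± 0.659% and 5.54 ± 0.197% (SD, n = 3 each). Btg1 lies at chr7:37812831-37815088 on the plus strand and Btg3 at chr11:16873646-16889201 on the minus strand in the table.

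Pan2 is the nuclease of the PAN2-PAN3 complex and Pan3 its partner, which binds the poly(A)-binding protein. Pan2 had 28.2, 25.8 and 25.4 CPM in control neurons, 30.3, 28.0 and 23.5 CPM in DCS neurons and 32.8, 36.7 and 35.6 CPM under ACS. Each ACS library was above each of the other 6, and the DCS libraries spread on both sides of the controls. The mean rose from 26.4 ± 1.51 CPM in control neurons to 35.0 ± 2.04 CPM (SD, n = 3 each). On the log2 scale this was 0.41, with a standard error of 0.10 and an adjusted p of 0.0461 by edgeR. The call is close to the threshold. Among other settings, it was lost without ACS library 1 (adjusted p = 0.0907), 2 (0.152) or 3 (0.104), control library 1 (0.101), 2 (0.162) or 3 (0.0691) or DCS library 2 (0.0732), and by limma (0.0697) or with no filter on low counts (0.0538). Between DCS and control neurons the log2 fold change of Pan2 was 0.04 (95% confidence interval -0.17 to 0.26, adjusted p = 0.931), and between ACS and DCS it was 0.36. Pan2 lies at chr7:2718700-2736157 on the plus strand in the table.

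Pan3 did not pass the test in either comparison with control neurons. It had 40.2, 38.0 and 39.4 CPM in control neurons, 36.9, 32.7 and 35.8 CPM in DCS neurons and 39.9, 33.2 and 34.1 CPM under ACS. The DCS libraries were below the controls, while ACS library 1 lay among the controls and the other ACS libraries below them. The log2 fold change was -0.13 between ACS and control neurons (adjusted p = 0.371 from edgeR's test) and -0.16 between DCS and control neurons (adjusted p = 0.695). In FPKM, Pan3 was 2.24, 2.31 and 2.44 times Pan2 in control neurons, 1.91, 1.83 and 2.40 times under DCS and 1.91, 1.42 and 1.50 times under ACS. The ACS and control ratios did not overlap, and the DCS ratios overlapped both. Pan3 lies at chr12:9216536-9331195 on the minus strand in the table.

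The nuclease subunits of CCR4-NOT were each somewhat lower under ACS than in control neurons, and none passed the test. Cnot6, of the Ccr4 type, had 116, 123 and 103 CPM in control neurons, 95.7, 101 and 103 CPM in DCS neurons and 93.7, 92.6 and 104 CPM under ACS. Control library 3 was the lowest control and lay below ACS library 3. The log2 fold change was -0.23 between ACS and control neurons (95% confidence interval -0.39 to -0.07, adjusted p = 0.103 from edgeR's test). A pseudogene entry, AABR07029573, lies within Cnot6 on the same strand and held 4.96% to 7.85% of its count. Cnot6l, the relative of Cnot6, had 33.7, 36.6 and 36.6 CPM in control neurons, 32.5, 33.8 and 33.2 CPM in DCS neurons and 33.7, 31.2 and 31.3 CPM under ACS, with a log2 fold change of -0.15 between ACS and control neurons (adjusted p = 0.178). The highest ACS library and the lowest control library of Cnot6l differed by less than 0.1 CPM.

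Cnot7, of the Caf1 type, had 103, 101 and 90.2 CPM in control neurons, 88.4, 86.7 and 92.5 CPM in DCS neurons and 84.0, 87.0 and 86.7 CPM under ACS. All ACS libraries were below all control libraries, and the log2 fold change was -0.19 (95% confidence interval -0.32 to -0.07, adjusted p = 0.0890 from edgeR's test). Its relative Cnot8 had 88.4, 85.5 and 87.4 CPM in control neurons, 82.6, 83.1 and 87.7 CPM in DCS neurons and 80.5, 79.5 and 82.8 CPM under ACS. The ACS libraries were again below the controls, by a smaller step of -0.11 on the log2 scale (95% confidence interval -0.20 to -0.01, adjusted p = 0.192). DESeq2 called Cnot6 (adjusted p = 0.0215) and Cnot7 (0.0270) in this comparison, and so did edgeR without control library 3 (0.0212 and 0.0123), the library with the lowest Cnot6 and Cnot7 of the controls. Together the 4 subunits had 335 ± 15.6 CPM in control neurons, 307 ± 8.47 CPM under DCS and 296 ± 8.22 CPM under ACS (SD, n = 3 each). In the table Cnot6 lies at chr10:35146337-35187416 (minus strand), Cnot6l at chr14:15059387-15146586 (plus strand), Cnot7 at chr16:54899452-54918613 (plus strand) and Cnot8 at chr10:43538160-43551271 (plus strand).

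**Figure D3:**
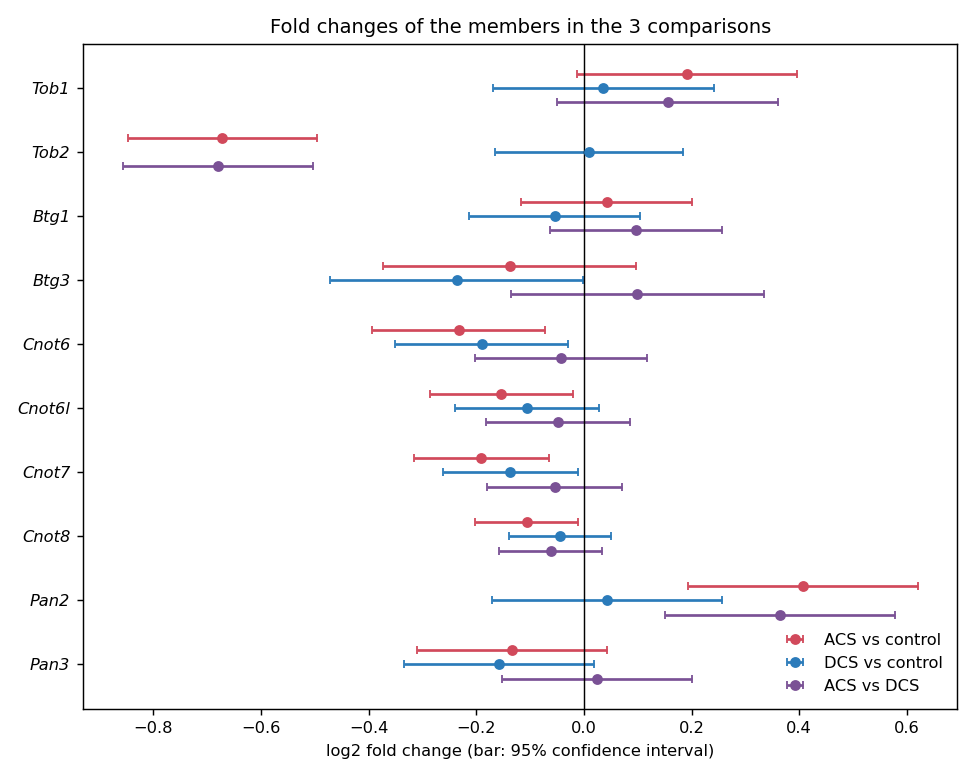
log2 fold change of each member between ACS and control, DCS and control, and ACS and DCS (points), with 95% confidence intervals from the fit over all 9 libraries (bars). Tob2 lies near -0.7 in both comparisons with ACS and at 0.0088 between DCS and control, and Pan2 is above 0 in both comparisons with ACS.

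Under direct current no member passed the test against control neurons. Of all genes, 0.0123% passed edgeR's adjusted test in this comparison (0.00614% higher, 0.00614% lower). At an unadjusted p under 0.05, 3 members were lower, Btg3, Cnot6 and Cnot7, where 7.09% of all genes had such a p, and neither DESeq2 nor limma called any member. The log2 fold changes were -0.19 for Cnot6 (adjusted p = 0.692), -0.14 for Cnot7 (0.692), -0.11 for Cnot6l (0.706) and -0.04 for Cnot8 (0.816). The DCS and control libraries did not overlap for Btg3, Cnot6 and Pan3, all lower, where 11.1% of all genes did not overlap (5.59% higher, 5.51% lower). The comparisons of ACS and of DCS with control neurons use the same control libraries, so values that are lower in both are not separate evidence.

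Between ACS and DCS neurons the values of the members are a description. Of all genes, 0.633% passed the test between the currents (0.510% higher and 0.123% lower under ACS), with 1 of the 10 members, Tob2, among them, which the choice of the family had fixed and which is no result. The groups did not overlap for Tob1, Tob2 and Pan2, where 21.4% of all genes did not overlap (11.2% higher, 10.2% lower). Tob1 was 0.16 higher on the log2 scale under ACS, with its lowest ACS library (29.3 CPM) just above its highest DCS library (28.8 CPM). For the 4 nuclease subunits of CCR4-NOT the log2 fold changes between the currents ran from -0.06 to -0.04, and the groups overlapped for each.

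The levels of the members per length spanned more than an order of magnitude and kept much of their order across the groups. In control neurons Btg1 (93.3 FPKM) was followed by Cnot6 (55.5), Cnot8 (38.3), Cnot7 (36.3), Pan3 (15.3), Tob1 (12.5), Tob2 (10.9), Cnot6l (7.72), Btg3 (6.73) and Pan2 (6.56). Neighbours whose control libraries overlapped were Cnot8 with Cnot7, Tob1 with Tob2, and Btg3 with Pan2. Under ACS, Pan2 (8.61 ± 0.546 FPKM) lay above Cnot6l (6.87 ± 0.266), Tob2 (6.76 ± 0.324) and Btg3 (6.05 ± 0.550), and the Tob2 libraries overlapped those of both Cnot6l and Btg3 (SD, n = 3 each). The spread within a group, as the SD in percent of the mean CPM, was lowest for Btg3 under DCS (1.27%) and highest for Pan2 under DCS (12.7%). Btg3 had the fewest counts (400 to 637 per library), and counting error, which may exceed so small a spread, was not separated from it.

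**Figure D4:**
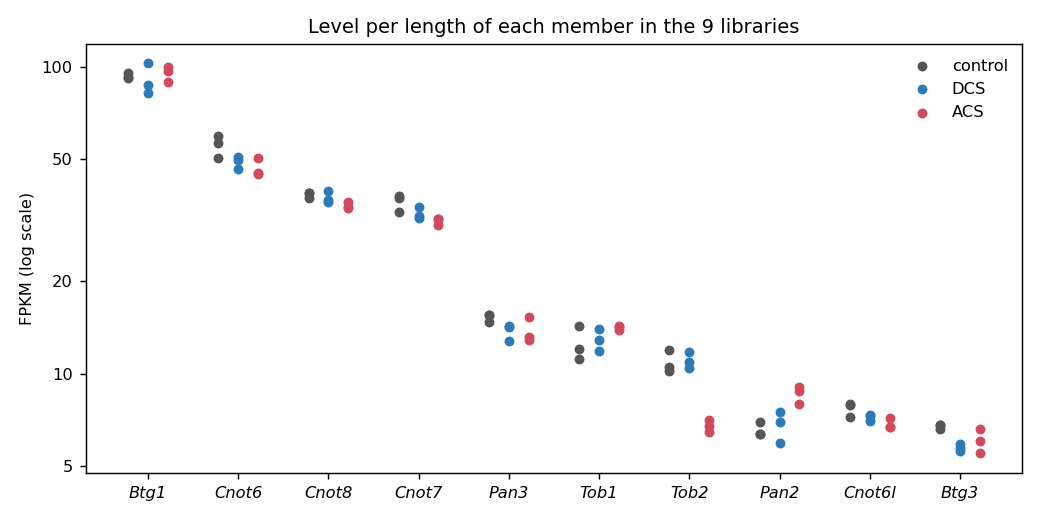
FPKM of each member (log axis) in the 9 libraries, ordered by the mean over all libraries, with a dot per library and a colour per group. Btg1 is highest in every library, and Tob2 drops from 10.2 to 11.9 FPKM in the control libraries to 6.44 to 7.09 FPKM in the ACS libraries.

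Among the 13939 other tested entries with a gene symbol, those most like Tob2 in log2 CPM over the 9 libraries were Bysl (Pearson r = 0.978), Cttn (0.976), Phf13 (0.975), Hes5 (0.967) and Slc39a10 (0.960). The 9 libraries are not alike, since the 3 ACS libraries stand apart for each of these genes, and r mostly states that split. After the group means were taken out, r with Tob2 was 0.825 for Bysl, which acts in the making of small ribosomal subunits, 0.464 for Phf13, a reader of histone methylation, 0.434 for Hes5, a Notch target of progenitors, and 0.487 for Slc39a10, a zinc transporter. For Cttn, which encodes an actin-binding protein, it was -0.088. Phf13 had 24.8 to 27.4 CPM in the 6 control and DCS libraries and 13.8 to 16.6 CPM under ACS, and Bysl had 34.7 to 37.7 and 28.4 to 31.3 CPM. The Cttn entry is 1 of 2 with that symbol and is listed at 0 in all 3 ACS libraries, while the other entry held 4796 to 5395 counts there and 4723 to 5697 in the other 6 libraries. These counts are not scaled for the library totals. In FPKM the other entry was at 25.94 to 28.28 in the ACS libraries and 22.15 to 25.88 in the other 6. Of the members, Pan2 had r = -0.888 with Tob2 and Cnot8 0.787, and -0.403 and 0.467 after the group means were taken out.

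The other genes of mRNA decay and tail metabolism were counted on 8 lists of 90 tested genes in all. Under ACS 2 of the 90 rose and 2 fell against control neurons, close to the 4.16% of all genes that passed, and the median log2 fold change was -0.03. Pabpn1, the nuclear poly(A)-binding protein that sets the length of new tails, rose from 140, 136 and 138 CPM to 186, 175 and 188 CPM, with 139, 138 and 149 CPM under DCS. All its ACS libraries were above all others. Against control neurons it differed by 0.40 on the log2 scale, with a standard error of 0.05 and an adjusted p of 0.00240 by edgeR, a call kept whichever library was left out. Between ACS and DCS it was 0.37 (adjusted p = 0.00872), and this call was lost without ACS library 1 (0.0556) or DCS library 2 (0.0558). Of the 6 tested poly(A)-binding proteins and partners, Pabpn1 was the only one to pass.

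Of 23 tested proteins that bring deadenylases to mRNAs, Tnrc6a rose and Zfp36l2 fell. Tnrc6a, a partner of Argonaute in microRNA silencing that binds CCR4-NOT, averaged 129 ± 2.12 CPM in control neurons, 138 ± 4.67 CPM under DCS and 157 ± 6.47 CPM under ACS (SD, n = 3 each). Between ACS and control it was 0.29 higher on the log2 scale (adjusted p = 0.00978 by edgeR). It was lost without ACS library 1 (0.0508) or control library 2 (0.0598). Zfp36l2, which binds AU-rich elements, had 25.1, 25.2 and 19.1 CPM in the control libraries and 11.9, 14.0 and 15.1 CPM in the ACS libraries. The DCS libraries were as low, at 10.8, 12.1 and 15.1 CPM. Between ACS and control Zfp36l2 fell by 0.76 on the log2 scale (adjusted p = 0.0285 by edgeR). Its ACS and control libraries did not overlap, but the call was lost, among other settings, without ACS library 1 (0.110), 2 (0.0977) or 3 (0.0533) or control library 1 (0.115) or 2 (0.119). Of 16 exosome genes, Exosc2, a subunit of the 3′ to 5′ decay complex, averaged 42.1 ± 1.32 CPM in the control libraries and 34.1 ± 2.13 CPM in the ACS libraries (SD, n = 3 each). It fell by 0.31 on the log2 scale (adjusted p = 0.0266 by edgeR). That call was lost, among other settings, without ACS library 1 (0.0998) or 2 (0.102) or control library 1 (0.0977) or 2 (0.118), and in a fit of the 6 libraries alone (0.0540).

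No gene of the other 5 lists passed edgeR's adjusted test in any comparison, and 6 (ACS and control), 3 (DCS and control) and 4 (ACS and DCS) of their 45 tested genes had an unadjusted p under 0.05, where 20.8%, 7.09% and 13.9% of all genes did. The scaffold and other subunits of CCR4-NOT had a median log2 fold change of 0.0050 under ACS against control neurons, and of the 8 tested only Cnot10 had an unadjusted p under 0.05 (log2 fold change 0.18, adjusted p = 0.120). Of the 20 tested decapping and 5′ to 3′ decay genes, 16 were below 0 under ACS, with a median of -0.13 (all genes -0.0029). An unadjusted p under 0.05 was found for 4 of them, where 20.8% of all genes had such a p. Edc4, a scaffold of decapping and the gene of smallest p among them, was higher by 0.20 (adjusted p = 0.0711, called by DESeq2 at 0.0116 and by edgeR without control library 3 at 0.0197). Btg2, the relative of Btg1 that neurons induce with activity, had 52.1 ± 2.14 CPM in control neurons, 51.3 ± 7.44 CPM under DCS and 58.2 ± 7.00 CPM under ACS (SD, n = 3 each), and its smallest p was between ACS and DCS (log2 fold change 0.18, adjusted p = 0.515). The 8 tested cytoplasmic poly(A) polymerases and terminal nucleotidyltransferases were led by Tent4b, higher by 0.25 between ACS and DCS (adjusted p = 0.0825, called by DESeq2 at 0.00603). The 7 other exonucleases of the deadenylase families were led by Pnldc1, at 1.55 CPM under ACS and 0.989 CPM under DCS (adjusted p = 0.329). Over these 5 lists DESeq2 called only Edc4 and Tent4b, and limma called none. Under DCS none of the 90 genes passed against control neurons with edgeR, 6 had an unadjusted p under 0.05, DESeq2 called 1 (Zfp36l2) and limma none.

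**Figure D5:**
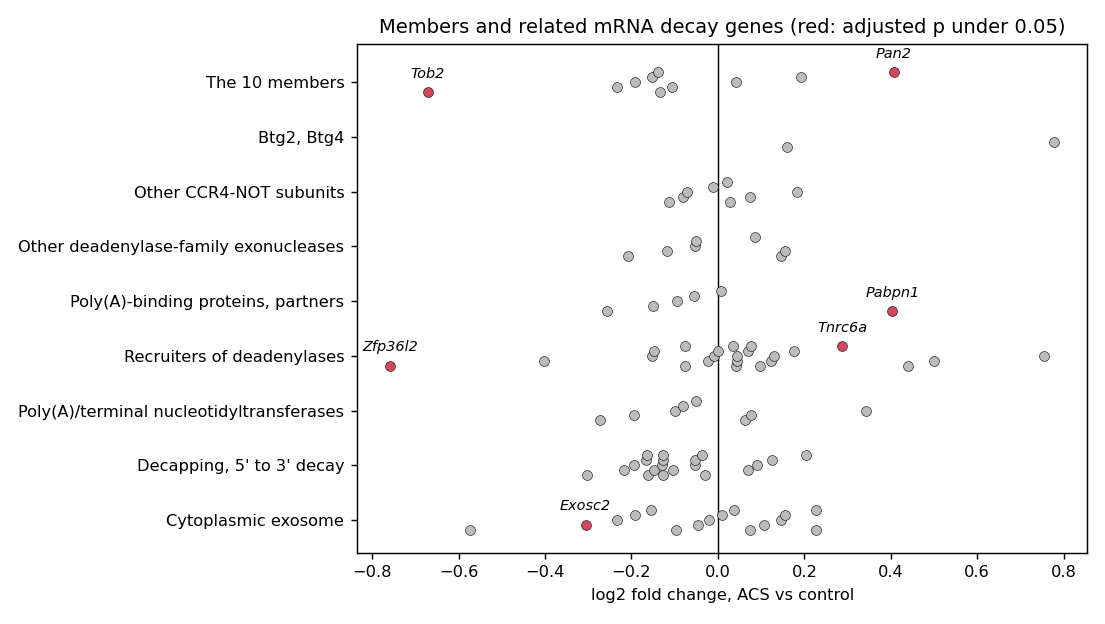
log2 fold change between ACS and control neurons (horizontal axis) of the 10 members and of the tested genes of the 8 related lists, a dot per gene with small vertical offsets for legibility and red for an adjusted p under 0.05 from edgeR's test. Tob2, Zfp36l2 and Exosc2 lie on the lower side and Pan2, Pabpn1 and Tnrc6a on the higher side among the red dots.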

How the data were processed

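The authors mapped trimmed reads of polyadenylated RNA with HISAT2 2.0.4 and quantified genes with StringTie 1.3.4d (versions per the labels). For trimming, fastp is named in the paper and cutadapt 1.9 in the labels. UMI-tools is named without its role. The deposited table holds FPKM values, which the authors scaled by exon length and library size, and an estimated count per gene, also made by the authors and given as whole numbers. Counts of 4, 8 or 12 make up 34.15% of those from 1 to 15, so a fragment may add about 4 to a count. The table names no genome build. The library kit marks strand, but the sources used here do not state the setting for strand in the counting.

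Counts were scaled by TMM and filtered by filterByExpr (minimum count 10, minimum total 15), which kept 16284 genes and removed 16339. A quasi-likelihood fit with edgeR 4.0.16 (R 4.3.3) over all 9 libraries, tested on simulated data, gave the 3 comparisons with 6 residual degrees of freedom. Genes were adjusted over the whole comparison by the Benjamini-Hochberg method. Library totals were 49039412 to 68690760 counts, and counting error, which is relatively largest for Btg3 (400 to 637 counts per library), was not separated from the spread between libraries. Alternatives were DESeq2 1.42.0, limma 3.58.1 on log2(FPKM + 0.1) or log2(FPKM + 1), other filters and scaling, the replicate number as a block, and each library left out. Alternatives for named genes of the related lists were added after seeing the data.

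The members and lists were chosen with earlier results of these data known. All members are named. Of a related list, every gene past the adjusted threshold is named, or else the gene of smallest p, and the 5 entries most like Tob2 are named by Pearson r. The replicate numbers do not pair the samples, as given under the dependence on processing. Promoter sequences are from RefSeq (GRCr8).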

Additional observations from a re-analysis of the deposited data

How the results depend on the processing

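Of 540 values of the members under 18 alternatives, 11 turned in sign, all of them values that passed no test. Between DCS and control, Tob2 was at -0.033, -0.011 and -0.034 without control library 1, control library 2 or DCS library 3, Tob1 at -0.037 and -0.020 without control library 1 or DCS library 3, Btg1 at 0.0049 and Pan2 at -0.040 without DCS library 1. Between ACS and DCS, Pan3 was at -0.0021 and -0.0019 by limma with either pseudocount (0.1 or 1), and at -0.063 and -0.025 without ACS library 1 or DCS library 2. With 1 library left out, the values between DCS and control ran from -0.034 to 0.074 for Tob2, -0.037 to 0.14 for Tob1, -0.15 to 0.0049 for Btg1 and -0.040 to 0.13 for Pan2, and those of Pan3 between ACS and DCS from -0.063 to 0.073. Tob2 passed between ACS and control under all 18 alternatives, with adjusted p up to 0.0188 and log2 fold changes from -0.71 to -0.61. All 18 reused libraries in which Tob2 had been noticed, so these calls are not independent evidence. DESeq2 called 1652 genes between ACS and control, 660 between ACS and DCS and 38 between DCS and control, in place of 678, 103 and 2, and 4 and 2 members in the first 2 of these comparisons in place of 2 and 1. Limma called 65 and 64 genes between ACS and DCS with pseudocounts of 0.1 and 1, and 1 gene between DCS and control with a pseudocount of 1. It called 1 member between ACS and control with either pseudocount, as did edgeR with no filter. Counts divided by 4 and the 6 libraries of the comparison each gave 1 gene between DCS and control. With 1 library left out, the genes called ranged from 138 to 1431 (ACS and control), 27 to 184 (ACS and DCS) and 1 to 47 (DCS and control), and the members called between ACS and control from 1 to 3. Without control library 3 the 3 counts were 1431, 184 and 47. Same-numbered libraries deviated from their group means with correlations of -0.053 to 0.063, and differently numbered ones of -0.061 to 0.042, so they share only a number. With the replicate number as a block, 475 genes passed between ACS and control, 59 between ACS and DCS and 1 between DCS and control, and 1 member passed in the first (Tob2, with Pan2 at an adjusted p of 0.0616). The block also ended the calls of Zfp36l2 (0.0518) and Exosc2 (0.0550) between ACS and control. The causes of these shifts were not tested. Depth limits Btg3 most, the member with the fewest counts (400 to 637 per library), for which counting error may be as large as the spread between libraries or larger.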

Other observations

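Zfp36l2, which binds AU-rich elements and recruits deadenylases, was as low under DCS as under ACS, at 10.8, 12.1 and 15.1 CPM against 25.1, 25.2 and 19.1 CPM in control neurons (log2 fold change -0.87, adjusted p = 0.510 from edgeR's test over all genes). DESeq2 called this difference, with an adjusted p of 6.466e-05. All 3 DCS libraries were below the control libraries, and ACS and DCS overlapped, with a log2 fold change of 0.11 between them (adjusted p = 0.817). Exosc2 had 38.2, 39.7 and 37.2 CPM under DCS, between its ACS and control libraries without overlap on either side. Tnrc6a had 142, 133 and 138 CPM under DCS, also between its control libraries (126 to 131 CPM) and its ACS libraries (150 to 163 CPM). These DCS values were picked out after they were seen. Both comparisons with control neurons use the same control libraries.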
